A study of Homo sapiens with 6 samples.

Results

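The genes described here are the 43 glycolysis and gluconeogenesis genes that were measurable in LX-2 cells, a line of human hepatic stellate cells, after treatment with recombinant human Sema3C (rhSema3C). They are the genes that the deposited annotation places in the KEGG pathway Glycolysis / Gluconeogenesis and whose FPKM (the authors' level per kilobase of gene, scaled to library size) averaged at least 0.5 over the 6 samples. The pathway entry was carried by 60 genes. The acetyl-CoA synthetases ACSS1 and ACSS2 were left out, which gave 58, and 43 of these passed the FPKM minimum, among 14178 genes that passed it in a table of 33900. In rhSema3C-treated cells the minor isozymes HK2, ALDOC and ENO2, the mitochondrial gluconeogenic enzyme gene PCK2 and the lactate dehydrogenase gene LDHA were higher. PKM, PGAM1, TPI1 and GAPDH were lower. The other lactate dehydrogenase gene, LDHB, was called higher, but not in every setting.

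The study asked how Sema3C, a secreted semaphorin, acts on hepatic stellate cells, the collagen-producing cells of the liver. LX-2 cells, labelled wild type, received rhSema3C at 300 ng/ml in 3 samples or PBS in 3 control samples, and all 6 were collected after 48 h in medium with fetal bovine serum. LX-2 is an established line, so the samples are cultures of 1 line and not donors. The labels call the replicates biological without saying whether the cultures were set up separately, so p-values measure the spread between these samples, which may be technical.

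Total counts on genes ran from 68267808 to 89245585 per sample. Of the stellate cell and fibroblast markers VIM (935 FPKM), COL1A1, COL3A1, ACTA2, PDGFRB and LUM passed the FPKM minimum, while COL1A2 (0.109 FPKM) and DES (0.0252 FPKM) did not. The 8 markers summed to 1147 to 1206 FPKM in PBS samples and 910.1 to 969.5 in rhSema3C samples, with COL1A1 (log2 fold change -0.78), ACTA2 (-0.56), VIM (-0.41) and COL3A1 (-0.36) called lower and PDGFRB and LUM not called. Summed FPKM of 4 hepatocyte markers in the table was 2.66 to 3.15 in PBS samples and 3.52 to 4.16 in rhSema3C samples, nearly all of it SERPINA1, with ALB, APOA1 and HNF4A at or near 0. The 4 endothelial markers summed to at most 1.67, the 3 cholangiocyte markers to at most 3.88, and the 4 macrophage markers to 94.4 to 103 in PBS and 66.8 to 72.6 in rhSema3C samples, most of it CD68, with CD163 and MARCO near 0. Mitochondrially encoded genes took 4.75% to 5.42% of the counts in PBS samples and 3.73% to 3.93% in rhSema3C samples. The part of these shifts in the results on glycolysis genes was not tested. The samples are cultures of 1 line, and in bulk RNA fewer cells in a given state and less RNA per cell cannot be told apart.

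Glycolysis converts glucose to pyruvate in the cytosol. Hexokinase traps glucose as glucose 6-phosphate, phosphofructokinase commits it, aldolase splits the sugar into triose phosphates, and the later enzymes turn these into pyruvate while making ATP. Pyruvate is then reduced to lactate by lactate dehydrogenase or enters mitochondria through the pyruvate dehydrogenase complex. Gluconeogenesis runs most of the same steps backward and needs its own enzymes at the irreversible ones. Several steps have isozymes encoded by separate genes, and in activated stellate cells glycolysis is known to be raised. The paper reports higher ACTA2 and COL1A1 mRNA in LX-2 cells given rhSema3C, by qRT-PCR, and reads this as activation. Both were lower in the treated samples here, and the reason for the difference was not tested.

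Adjusted p-values come from quasi-likelihood tests in edgeR, fitted to counts scaled by TMM (trimmed mean of M-values), with Benjamini-Hochberg adjustment over all 14178 genes, and a gene is called higher or lower in rhSema3C-treated cells at an adjusted p under 0.05. Of the 43 genes, 15 were called higher and 16 lower, and 12 were not called. Over all genes tested, 31.7% were called higher and 30.6% lower, 62.3% in all, so that the share of glycolysis genes called in each direction was near the background. The 3 PBS and 3 rhSema3C values did not overlap for the same 15 higher and 16 lower genes, against 34.6% and 33.3% of all genes. The median log2 fold change was 0.01 for the glycolysis genes and 0.02 for all genes tested. At the thresholds of the study, more than 2-fold with an unadjusted p under 0.05, PCK2, ALDH1A3 and HK2 were higher and 0 of the 43 lower, where 3.42% and 2.12% of all genes were. At an unadjusted p under 0.05 alone, 32 of the 43 passed in edgeR, against 65.8% of all genes. DESeq2 called 15 higher and 16 lower at an adjusted p under 0.05, against 31.5% and 31.8% of all genes. These were not all the same genes. AKR1A1, called higher in edgeR, was not called in DESeq2, and PDHX was called in DESeq2 only.

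How many genes fell on each side depended on the scaling. Scaled by library size alone, 21 were called higher and 13 lower, and after rescaling FPKM to TPM, with limma, 23 were higher and 6 lower. Those scalings moved the median log2 fold change of all genes from 0.02 to 0.13 and to 0.23. Relative to the median of all genes, 21 of the 43 lay above and 22 below with TMM, library-size and TPM scaling alike. Such a scaling moves all genes by nearly the same amount, so these numbers could hardly change with it. They did change with the set of genes, to 18 above and 25 below without the filter on low genes. With a minimum of 5 FPKM, which left 37 of the 43, they were 21 and 16. The calls of 10 higher genes (ADH5, ALDH1A3, ALDH2, ALDH7A1, ALDOC, ENO2, HK2, LDHA, PCK2 and PGK1) and 6 lower genes (GALM, GAPDH, GPI, PGAM1, PKM and TPI1) were made in every setting in which those genes were tested.

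**Figure D1:**
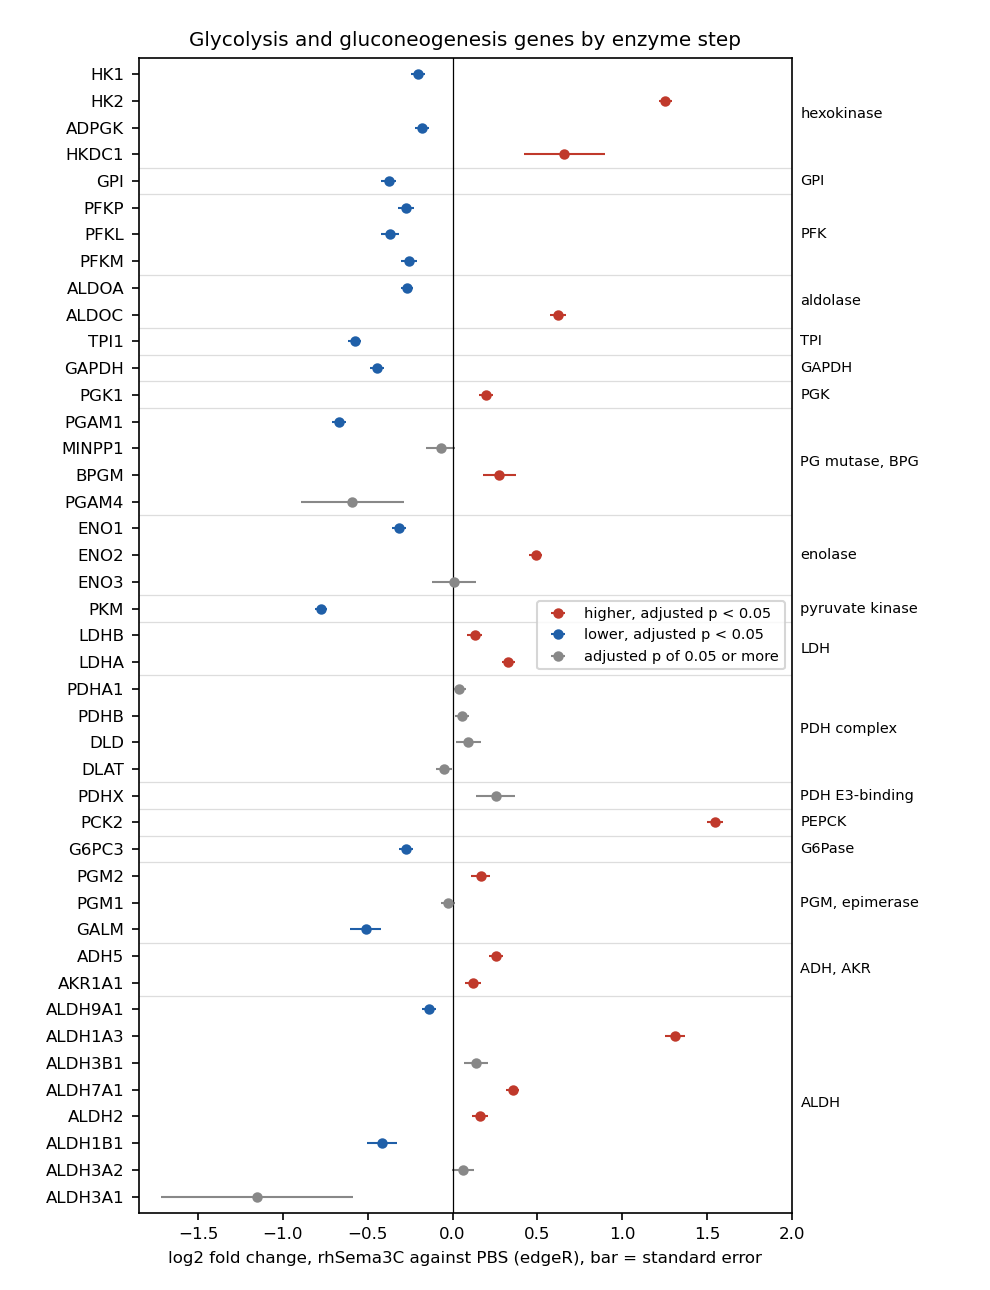
Log2 fold change of each of the 43 genes, rhSema3C against PBS, from edgeR with TMM scaling, grouped by enzyme step on the vertical axis. Points are estimates and bars are standard errors. HK2, ALDOC and ENO2 lie to the right of zero while the other well-expressed genes of their steps lie to the left. With TPM scaling, not drawn here, HK1 and ADPGK were at or above 0, as was ALDH9A1 of the aldehyde dehydrogenase step.

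Short stretches of promoter are shown for genes whose direction differed within the pathway, HK2, ALDOC, ENO2, PGK1 and LDHA, which were higher, and GAPDH and GPI, which were lower. The letters searched were ACGTG, the core of hypoxia response elements, CACGTG, an E-box, which always holds ACGTG as well, and TGATGCA, the start of a common form of the element bound by ATF4 with a C/EBP partner. Both strands of the 250 bases before each RefSeq start (GRCh38.p14) were read. Capitals mark ACGTG or its reverse complement CACGT, which join to CACGTG where they overlap.
HK2, chr2:74834067-74834095, plus strand: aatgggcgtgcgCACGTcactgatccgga
HK2, before another start, chr2:74835009-74835038, plus strand: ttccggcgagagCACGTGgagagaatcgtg
ALDOC, chr17:28577118-28577145, minus strand: aagtgcccggCACGTGgtaaagggattg
ENO2, chr12:6914450-6914478, plus strand: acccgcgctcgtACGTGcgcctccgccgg
PGK1, chrX:78104034-78104081, plus strand: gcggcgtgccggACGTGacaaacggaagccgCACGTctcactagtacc
LDHA, chr11:18394366-18394395, plus strand: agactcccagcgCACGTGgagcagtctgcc
GAPDH, chr12:6535171-6535200, plus strand: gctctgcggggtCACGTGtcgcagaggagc
GPI, chr19:34364818-34364846, plus strand: acactgcctgtaACGTGgaaggtgttcga

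In GENCODE 29 the stretches of PGK1 and GAPDH and the one before the other HK2 start lie in introns of longer transcripts of the same gene, and the other 5 touch an exon of some transcript of their gene. Promoter windows were found for 41 of the 43 genes, all but ALDH2 and ALDH3A1. ACGTG was present on either strand for 21 of the 41 (51.2%), against 21.7% of 27305 genes with a window, and in 36.6% of the 71 windows of the 41 genes against 18.5% of all windows. It was held by 8 of the 14 higher genes with a window, 8 of the 16 lower genes and 5 of the 11 that were not called. CACGTG was present for 10 of the 41 (24.4%, against 7.73% of all genes) and TGATGCA for 3 (7.32%, against 2.68%), namely HK1, TPI1 and PGM2. The windows of PCK2, ALDH1A3, PKM, PGAM1 and ENO1 held none of these letters. The shares of all genes and windows include genes under the FPKM minimum, which the 41 genes passed, so the sets compared are unlike. Shares over only the genes tested were not computed. A match is a description of the letters, and neither a binding site nor a cause of a change.

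Hexokinases begin the pathway, and 4 were measured. HK1, the hexokinase of most tissues, had a CPM (counts scaled to a common library size with TMM factors) of 473, 479.7 and 471 in PBS samples and 427, 391 and 418 in rhSema3C samples. The groups did not overlap, and HK1 was lower by a log2 fold change of -0.20 (SE 0.043, adjusted p = 0.0017). With TPM scaling its log2 fold change was 0.02, with no call. The HK1 call was also lost with library-size scaling, with a minimum of 5 FPKM and with limma on log2 FPKM, where HK1 stayed lower. HK2, the inducible isozyme that binds mitochondria (ENSG00000159399, GRCh38 chr2:74834127-74893359), had CPM of 74.7, 78.9 and 75.8 in PBS and 185, 180.0 and 182 in rhSema3C samples. Every treated sample was more than 100 CPM above every control, and HK2 was 2.39-fold higher (log2 fold change 1.25, SE 0.040, adjusted p = 1.6e-09). HKDC1, a less studied hexokinase, was low, with CPM of 1.59, 3.06 and 2.17 in PBS and 3.45, 4.12 and 3.18 in rhSema3C samples. Its lowest treated value lay just above its highest control value (log2 fold change 0.66, SE 0.240, adjusted p = 0.032). The call of HKDC1 was lost without PBS replicate 1 (log2 fold change 0.45, adjusted p = 0.10), PBS replicate 3 (0.63, 0.083), rhSema3C replicate 1 (0.68, 0.051) or rhSema3C replicate 2 (0.55, 0.11). ADPGK, which uses ADP in place of ATP to phosphorylate glucose, was lower at -0.18 with TMM scaling and at 0.05 with TPM scaling. The ADPGK call was lost in the same settings as the HK1 call. HK3 was under the FPKM minimum.

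GPI, the isomerase that turns glucose 6-phosphate into fructose 6-phosphate, had CPM of 403, 409 and 390.3 in PBS samples and 316, 296 and 313 in rhSema3C samples. The ranges were far apart, and GPI was 23.0% lower (log2 fold change -0.38, SE 0.043, adjusted p = 1.6e-05). Phosphofructokinase, the committed and most tightly controlled step, is made from 3 kinds of subunit, and all were lower with TMM scaling. The platelet-type subunit PFKP had CPM of 238, 253 and 238 in PBS and 211, 198 and 194 in rhSema3C samples. It fell by 0.28 on the log2 scale (SE 0.046, adjusted p = 0.00032), without overlap. The liver-type subunit PFKL (log2 fold change -0.37) and the muscle-type subunit PFKM (-0.26) were lower as well. PFKM overlaps SENP1, on the other strand, whose counts were 37.0% of those of PFKM, and the strand setting of the counting is not given in the sources used here. With TPM scaling none of the PFKP, PFKL and PFKM calls was made.

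Aldolase splits fructose 1,6-bisphosphate. ALDOA, the main isozyme outside liver and brain, had CPM of 1304, 1308 and 1260.0 in PBS samples and 1059, 1066 and 1088 in rhSema3C samples. All treated values were below all control values (log2 fold change -0.27, SE 0.037, adjusted p = 7.3e-05), with no call under TPM scaling. ALDOC, the isozyme best known from brain, had CPM of 95.9, 101 and 91.0 in PBS and 147, 146 and 149 in rhSema3C samples. It was 1.54-fold higher, with treated samples close together and well above the controls (log2 fold change 0.62, SE 0.045, adjusted p = 5.3e-07). TPI1, which interconverts the triose phosphates, had CPM of 2175, 2192 and 2058 in PBS samples and 1409.8, 1453 and 1446 in rhSema3C samples. It was 33.0% lower (log2 fold change -0.58, SE 0.039, adjusted p = 3.3e-07). The TPI1 pseudogenes in the table held 1.55% as many counts as TPI1, and for the other 10 genes with pseudogenes in the table that share was at most 0.281%.

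GAPDH, which makes NADH and bisphosphoglycerate and had the highest FPKM of the 43 genes (3526), had CPM of 10334, 10487 and 9400.5 in PBS samples and 7328, 7252 and 7608 in rhSema3C samples. The groups were separate, and GAPDH was 26.6% lower (log2 fold change -0.45, SE 0.043, adjusted p = 5.2e-06). Unscaled, it took 0.906% to 1.00% of all counts in PBS samples and 0.749% to 0.789% in rhSema3C samples. PGK1, the first enzyme of the pathway to make ATP, went the other way, with CPM of 1172, 1184 and 1137 in PBS and 1379, 1298 and 1328 in rhSema3C samples. It was 14.7% higher (log2 fold change 0.20, SE 0.039, adjusted p = 0.0011).

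PGAM1, the phosphoglycerate mutase of most tissues, had CPM of 708, 705 and 672 in PBS samples and 448, 425 and 440.0 in rhSema3C samples. It was 37.0% lower, with no overlap (log2 fold change -0.67, SE 0.041, adjusted p = 1.9e-07). BPGM, which makes 2,3-bisphosphoglycerate, was higher at 0.28 (adjusted p = 0.030), a call that was lost in each fit without a sample except the one without PBS replicate 2, with adjusted p-values from 0.054 to 0.086. MINPP1, a phosphatase that can act on bisphosphoglycerate, was at -0.07 and PGAM4, a copy of the mutase gene that lies within PGK1, at -0.59, and neither was called. PGAM4 had a mean of 0.612 FPKM beside 224 for PGK1 on the other strand, so its counts are uncertain.

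Enolase makes phosphoenolpyruvate. ENO1, the widely expressed isozyme, had CPM of 2660.4, 2654 and 2451 in PBS samples and 2071, 2063 and 2116 in rhSema3C samples. Treated values were all below control values (log2 fold change -0.31, SE 0.041, adjusted p = 5.1e-05), with no call under TPM scaling. ENO2, the isozyme used as a marker of neurons, was higher at 0.49 (SE 0.038, adjusted p = 1.0e-06). ENO3, the muscle isozyme, was at 0.01 and was not called. ENO3 had 1.72 FPKM and lies against PFN1 (663 FPKM) on the other strand, so its counts are uncertain too.

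PKM, the pyruvate kinase gene of most tissues other than liver (ENSG00000067225, chr15:72199029-72231680), showed the largest fall of the 16 lower genes. Its CPM was 4084, 4143 and 3976 in PBS samples and 2443, 2320.4 and 2365 in rhSema3C samples. The lowest control was far above the highest treated sample, and PKM was 41.6% lower (log2 fold change -0.78, SE 0.036, adjusted p = 2.4e-08). Gene-level counts do not separate the M1 and M2 isoforms of PKM.

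Along the path from glucose to pyruvate, 21 genes were measured, of which 6 were higher, 12 lower and 3 not called. Over all genes tested, 31.7% were called higher and 30.6% lower. At the 10 steps of this path, the gene with the highest FPKM was lower in 9 and higher in 1, PGK1. With library-size scaling those numbers were 8 and 1, and with TPM scaling 5 and 1, where the lower genes were GPI, TPI1, GAPDH, PGAM1 and PKM. Among all genes tested, the change differed with level. Of all 143 genes with at least 200 FPKM, 65.0% were lower and 16.1% higher, with a median log2 fold change of -0.30. The 7 glycolysis genes at that level, all on this path, had 6 lower and 1 higher and a median of -0.45. The median of all genes was -0.23 both from 50 to 200 FPKM and from 20 to 50 FPKM. From 50 to 200 FPKM, 23.0% of all genes were higher and 58.5% lower. From 20 to 50 FPKM, 24.5% were higher and 57.5% lower. Of the 4 glycolysis genes from 50 to 200 FPKM, 3 were higher and 1 lower, with a median of 0.23, and of the 13 from 20 to 50 FPKM, 6 were higher and 5 lower, with a median of 0.04. Between 0.5 and 5 FPKM the median of all genes was 0.16 and that of 6 glycolysis genes 0.04. The part of level in the lower values of the most abundant glycolysis genes was not tested.

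**Figure D2:**
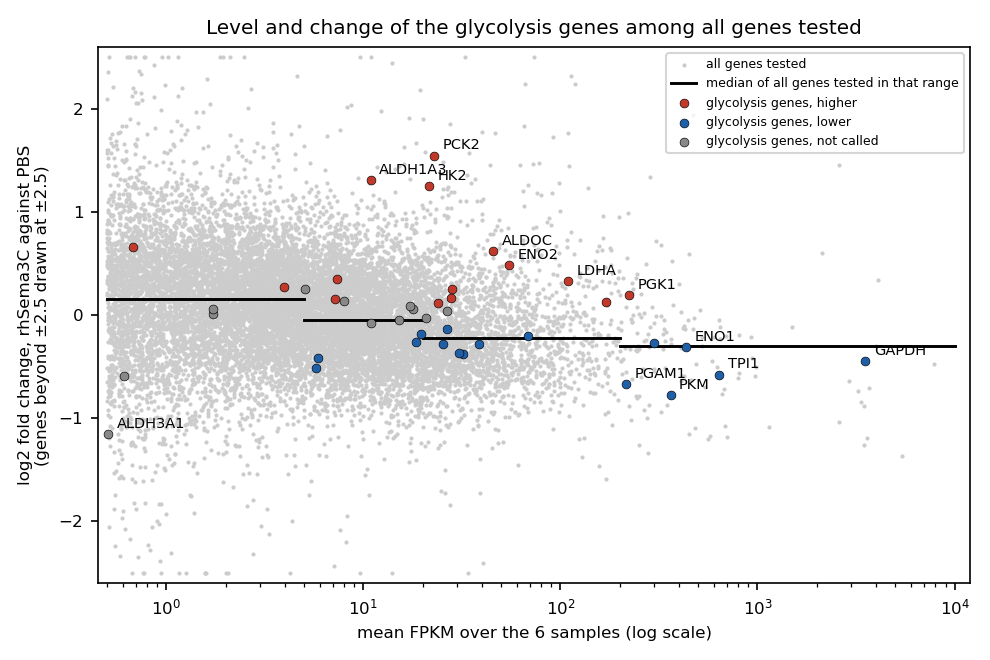
Log2 fold change (edgeR, TMM scaling) against mean FPKM over the 6 samples on a log axis, for all 14178 genes tested in grey and the 43 glycolysis genes in color by call. Black lines are medians of all genes in each range of level. The 7 glycolysis genes above 200 FPKM lie below zero except PGK1, and PCK2, ALDH1A3 and HK2 stand above the others.

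Because ratios within a sample do not depend on scaling, isozymes of the same step were compared within each sample. HK2 made up 11.5%, 11.9% and 11.8% of the summed FPKM of the 4 hexokinase genes in PBS samples and 26.2%, 27.1% and 26.3% in rhSema3C samples. The share of HK1 went from 68.3% ± 0.573 to 56.3% ± 0.806 (SD, n = 3 in each group). ALDOC made up 9.73%, 10.1% and 9.57% of aldolase FPKM in PBS samples and 16.9%, 16.7% and 16.7% in rhSema3C samples. ENO2 went from 8.28%, 8.54% and 8.93% of enolase FPKM to 13.99%, 14.14% and 14.01%. HK2, ALDOC and ENO2, each below the most abundant gene of its step, gained share, and their treated samples did not overlap with the controls. This did not hold for every less abundant gene of these steps. ADPGK went from 19.5% to 16.4% without overlap, HKDC1 from 0.483% to 0.730% without overlap, and ENO3 from 0.323% to 0.380% with overlap.

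On the log2 scale, the count ratio of HK2 to HK1 shifted by 1.46 (SE 0.032), that of ALDOC to ALDOA by 0.89 (SE 0.028), that of ENO2 to ENO1 by 0.80 (SE 0.035) and that of LDHA to LDHB by 0.20 (SE 0.039). The ratios of HKDC1 to HK1 (0.90), ENO3 to ENO1 (0.32) and PGM2 to PGM1 (0.19) also did not overlap between groups. Of 11 such pairs compared, 7 did not overlap, each at a two-sided exact permutation p of 0.1, the smallest that 3 against 3 samples allow, and 0.157 after adjustment over the 11 pairs. For single genes, 34.6% of all genes were higher and 33.3% lower without overlap. The matching share for ratios of gene pairs was not computed, and some of the 11 pairs share a gene. Whether 7 of 11 is unusual is therefore not known. For PFKL to PFKP the shift was -0.09 (SE 0.054) and for PFKM to PFKP 0.02 (SE 0.034), with overlap in both. The shares themselves depend on the gene length used, and with the length of the longest principal transcript in place of that behind the deposited FPKM, HK2 went from 6.77% to 16.6%, ALDOC from 5.66% to 10.0% and ENO2 from 6.004% to 10.0%.

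**Figure D3:**
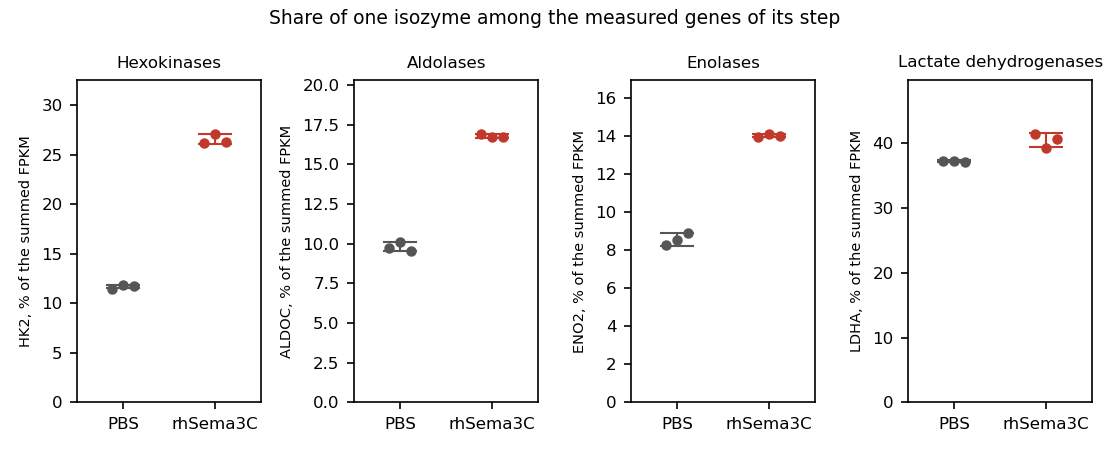
Share of HK2, ALDOC, ENO2 and LDHA in the summed FPKM of the measured genes of their step, in percent from 0, for the 3 PBS and 3 rhSema3C samples. Points are samples and bars span the mean ± SD. HK2 sits between 11.5% and 11.9% in PBS samples and between 26.2% and 27.1% in rhSema3C samples, and LDHA between 37.0% and 37.3% and between 39.2% and 41.4%.

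Totals over the isozymes of a step were compared for 5 steps under 3 scalings. TMM-scaled hexokinase FPKM was 107.2, 109.5 and 105.9 in PBS samples and 115.9, 108.6 and 113.2 in rhSema3C samples, which overlapped (two-sided exact permutation p = 0.2). Aldolase went from 364 ± 8.67 to 326 ± 3.96 and enolase from 531 ± 23.1 to 453 ± 5.74 (SD, n = 3), without overlap. For both of these the direction turned with the scaling. In the deposited FPKM the difference was -3.43% for aldolase, with overlap, and -7.99% for enolase, without overlap, while as TPM aldolase was 5.29% higher without overlap and enolase 0.340% higher with overlap. The other 3 totals kept their direction. Hexokinase was higher by 4.71% with TMM scaling, 12.95% in the deposited FPKM and 23.1% as TPM, without overlap in the deposited FPKM and as TPM. For phosphofructokinase the difference was -19.3% with TMM scaling and -12.97% in the deposited FPKM, without overlap, and -5.14% as TPM, with overlap. Lactate dehydrogenase was higher by 14.9%, 23.9% and 35.1% on the same 3 scales, without overlap on any of them.

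Lactate dehydrogenase reduces pyruvate to lactate and renews NAD+. LDHB, the heart-type subunit, had CPM of 509.8, 487 and 505 in PBS samples and 529, 570.0 and 544 in rhSema3C samples. The groups were close but did not overlap, and LDHB was higher at 0.13 (SE 0.043, adjusted p = 0.020). This call was lost without PBS replicate 2 (log2 fold change 0.11, adjusted p = 0.071), rhSema3C replicate 2 (0.10, 0.083) or rhSema3C replicate 3 (0.13, 0.050). The LDHB call was also lost without the filter on low genes (0.117, edgeR adjusted p = 0.089) and with a replicate block (0.129, 0.071). LDHA, the muscle-type subunit, was higher at 0.33 (SE 0.038, adjusted p = 1.9e-05), and its share of lactate dehydrogenase FPKM went from 37.2% ± 0.148 to 40.4% ± 1.11 (SD, n = 3). With the principal transcript length it went from 43.2% to 46.7%. The subunits LDHAL6A and LDHAL6B were under the FPKM minimum.

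The pyruvate dehydrogenase complex carries pyruvate carbon into the citrate cycle. In edgeR with TMM scaling 0 of its 5 measured genes were called, against 62.3% of all genes, and 1 (PDHX) had an unadjusted p under 0.05. With library-size scaling 4 of the 5 were called higher, all but DLAT, and with TPM scaling all 5 were, while the median of all genes moved to 0.13 and 0.23. PDHA1, the catalytic subunit, had CPM of 117, 123 and 123 in PBS samples and 128, 123 and 122 in rhSema3C samples, which overlapped (log2 fold change 0.04, SE 0.040, adjusted p = 0.40). PDHB was at 0.06, DLAT at -0.05 and DLD at 0.09. PDHX, which anchors DLD in the complex, was at 0.25 (adjusted p = 0.074), and was called with DESeq2, the only 1 of the 5, and in edgeR without PBS replicate 3 (log2 fold change 0.36, adjusted p = 0.024). PDHX overlaps APIP, on the other strand, which held 89.8% as many counts.

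Gluconeogenesis was represented by PCK2 and G6PC3. PCK2, the mitochondrial phosphoenolpyruvate carboxykinase (ENSG00000100889, chr14:24094053-24104125), is also a known target of ATF4. It had CPM of 47.7, 51.6 and 48.1 in PBS samples and 139.8, 142 and 149 in rhSema3C samples. This was the largest rise among the 43 genes, 2.92-fold, with the groups far apart (log2 fold change 1.55, SE 0.048, adjusted p = 1.3e-09). G6PC3, the glucose-6-phosphatase of tissues outside liver and kidney, had CPM of 128, 135 and 128 in PBS and 109, 105 and 108 in rhSema3C samples. It was 17.4% lower without overlap (log2 fold change -0.28, SE 0.041, adjusted p = 0.00015). With TPM scaling the log2 fold change of G6PC3 was -0.048, with no call (limma, adjusted p = 0.36). The cytosolic carboxykinase PCK1 and the fructose bisphosphatases FBP1 and FBP2, the enzymes of gluconeogenesis in hepatocytes and muscle, were under the FPKM minimum, with at most 20 counts in any sample.

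Phosphoglucomutase links glycolysis to glycogen. PGM1 and PGM2 were placed at this step by gene name, and which sugar phosphates their enzymes act on was not measured. PGM2 had CPM of 101, 93.8 and 103 in PBS samples and 109, 119 and 107 in rhSema3C samples. The ranges nearly touched (log2 fold change 0.17, SE 0.054, adjusted p = 0.019), and the call was lost without PBS replicate 2 (0.13) or rhSema3C replicate 2 (0.12), at an adjusted p of 0.080 in both. PGM1 was at -0.03 and was not called. GALM, which interconverts the anomers of glucose and galactose, had CPM of 17.2, 18.4 and 19.1 in PBS and 12.3, 12.4 and 13.7 in rhSema3C samples, and was 29.9% lower (log2 fold change -0.51, SE 0.089, adjusted p = 0.00042).

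KEGG also places alcohol and aldehyde dehydrogenases in this pathway, and of the 10 measured 5 were higher, 2 lower and 3 not called. The shares over all genes tested were 31.7% higher and 30.6% lower. ADH5, which oxidizes the glutathione adduct of formaldehyde, had CPM of 121, 131 and 131 in PBS samples and 151, 154 and 153 in rhSema3C samples. It was higher at 0.26 without overlap (SE 0.043, adjusted p = 0.00036). The aldehyde reductase AKR1A1 was higher at 0.12 (adjusted p = 0.045), a call that was lost in each fit without a sample except the one without PBS replicate 2, with adjusted p-values from 0.051 to 0.13. In edgeR it was also lost with median-of-ratios scaling (adjusted p = 0.067), without the filter on low genes (0.18) and with a replicate block (0.084). DESeq2 did not call AKR1A1 (adjusted p = 0.075).

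Among the aldehyde dehydrogenases, ALDH9A1, which makes a precursor of carnitine, had the highest FPKM. Its CPM was 94.4, 93.0 and 96.3 in PBS samples and 83.7, 89.2 and 85.0 in rhSema3C samples (log2 fold change -0.14, SE 0.043, adjusted p = 0.016). The ALDH9A1 call was lost without PBS replicate 3 (adjusted p = 0.050), rhSema3C replicate 1 (0.056) or rhSema3C replicate 3 (0.064), and with TPM scaling the log2 fold change was 0.09. The ALDH9A1 call was also lost with library-size scaling, a minimum of 5 FPKM, limma on log2 FPKM and a replicate block. ALDH1A3, which makes retinoic acid (ENSG00000184254, chr15:100877714-100916626), had CPM of 35.2, 32.1 and 34.2 in PBS and 88.5, 81.5 and 81.8 in rhSema3C samples. It was 2.48-fold higher with a wide gap between the groups (log2 fold change 1.31, SE 0.057, adjusted p = 1.4e-08). ALDH7A1 (0.35) and ALDH2 (0.16), the mitochondrial enzyme for acetaldehyde, were higher and the mitochondrial ALDH1B1 (-0.42) was lower. ALDH1B1 was not called with TPM scaling (-0.185, limma, adjusted p = 0.071).

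ALDH3A1 had the largest standard error of the 43 genes. Its CPM was 0.573, 3.90 and 4.18 in PBS samples and 1.95, 0.962 and 0.960 in rhSema3C samples, with PBS replicate 1 below every treated sample. The log2 fold change was -1.15 (SE 0.565, adjusted p = 0.097), and ALDH3A1 was called lower without PBS replicate 1 (-1.65, adjusted p = 0.00096) or rhSema3C replicate 1 (-1.58, adjusted p = 0.046). ALDH3B1 was at 0.14 and was called without PBS replicate 2 (0.20, adjusted p = 0.028). ALDH3A2 was at 0.06 and was not called.

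**Figure D4:**
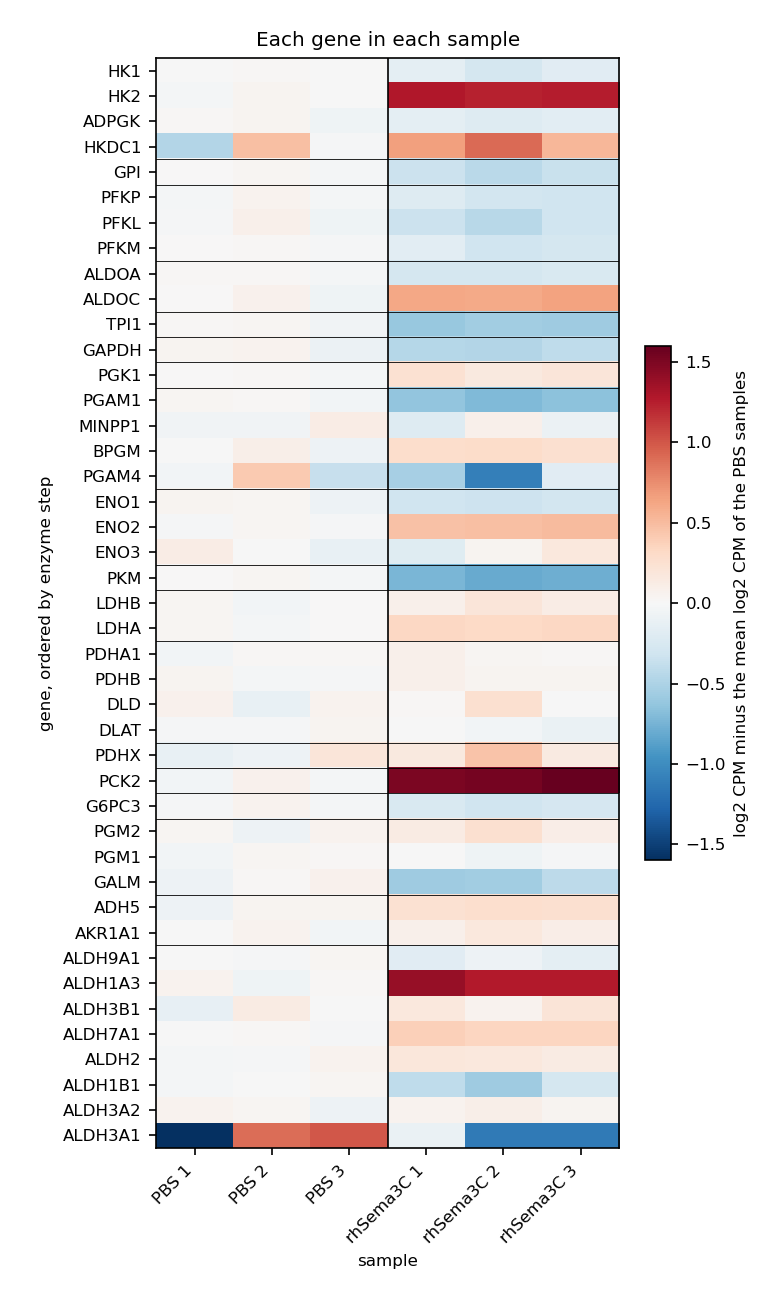
Log2 CPM of each of the 43 genes in each of the 6 samples, minus the mean log2 CPM of the 3 PBS samples, ordered by enzyme step. Red is above and blue below the PBS mean. HK2, PCK2 and ALDH1A3 are red in all 3 rhSema3C samples, PKM, PGAM1 and TPI1 are blue in all 3, and ALDH3A1 differs within the PBS samples.

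The 15 genes of the pathway that did not reach 0.5 FPKM were not tested. They included HK3, FBP1, FBP2, PGAM2, ENO4, LDHAL6A, LDHAL6B, PCK1, ADH1B, ADH1C, ADH4, ADH6 and ALDH3B2, and none of the 15 had more than 40 counts in a sample. Nearest the minimum were ALDH3A1 (0.507 FPKM) and PGAM4 (0.612) inside it and ENO4 (0.0913) and ADH1C (0.0876) outside.

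The order of levels among the glycolysis genes depends on length as well. The lengths implied by the deposited FPKM were close to the union of all exons in GENCODE 29 (median ratio 1.02 over the 43 genes), and 1.79 times the longest principal transcript at the median. By deposited FPKM the order began with GAPDH (3526), TPI1 (639.8), ENO1 (434), PKM (362) and ALDOA (299). Per kilobase of principal transcript it began with GAPDH (4659 CPM), TPI1 (1453), PKM (1186), ENO1 (996) and ALDOA (737).

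Genes that feed and steer the pathway were read from lists written for this purpose. The counts for each list stand beside 31.7% of all genes tested called higher and 30.6% called lower. Of 9 glucose and lactate transporter genes tested, 4 were higher and 4 lower. The glucose transporters SLC2A3 (GLUT3, log2 fold change 1.23) and SLC2A1 (GLUT1, 0.30) were higher. The glucose transporters SLC2A8 (GLUT8, -0.46, edgeR adjusted p = 0.0024) and SLC2A6 (GLUT6, -0.29, edgeR adjusted p = 0.0026), outside the rule for named genes and named after their values were seen, were lower. The lactate and pyruvate carrier SLC16A1 (MCT1) was higher at 0.81, while SLC16A3 (MCT4), the carrier of glycolytic cells, was lower at -0.61, as was BSG (basigin, -0.51), which brings both carriers to the membrane.

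Of 12 genes that control flux at phosphofructokinase or pyruvate dehydrogenase, 7 were higher and 2 lower. PDK1, a kinase that inhibits pyruvate dehydrogenase, had CPM of 13.7 ± 1.13 in PBS samples and 29.1 ± 2.20 in rhSema3C samples (SD, n = 3), a log2 fold change of 1.09. PDP1, the phosphatase that reverses it, was higher at 0.83 as well, and PDK2 (-0.58) and the phosphatase regulator PDPR (-0.23) were lower. PFKFB4, which sets the level of the phosphofructokinase activator fructose 2,6-bisphosphate, was higher at 0.69, and PFKFB3 was at -0.01 and was not called.

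Among the pentose phosphate genes, RPE, an epimerase, was higher at 0.29, and TALDO1 (transaldolase, -0.57) and TKT (transketolase, -0.19, but 0.04 with TPM scaling) were lower. Of 7 glycerol 3-phosphate and glycogen genes 4 were higher, led by UGP2 (0.51) and GPD1L (0.40), and GYS1, glycogen synthase, was lower at -0.33. Of 22 citrate cycle and linked genes 8 were higher and 11 lower. The largest rises were IDH1 (0.98), the cytosolic isocitrate dehydrogenase, and SUCLG2 (0.69), and the largest falls OGDH (-0.58) and IDH3B (-0.50), both of the mitochondrial cycle.

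Of 7 transcription factors and glucose sensors tested, 3 were higher and 1 lower. HIF1A, the oxygen-regulated factor known to act on many glycolytic genes, had CPM of 495 ± 18.4 in PBS samples and 821 ± 72.9 in rhSema3C samples (SD, n = 3), a log2 fold change of 0.73 (adjusted p = 1.5e-06). TXNIP, an inhibitor of glucose uptake that responds to glucose, was higher at 0.37, MLXIP, a glucose-sensing factor, was lower at -0.55 (SE 0.074), and MYC was at 0.04 and was not called.

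**Figure D5:**
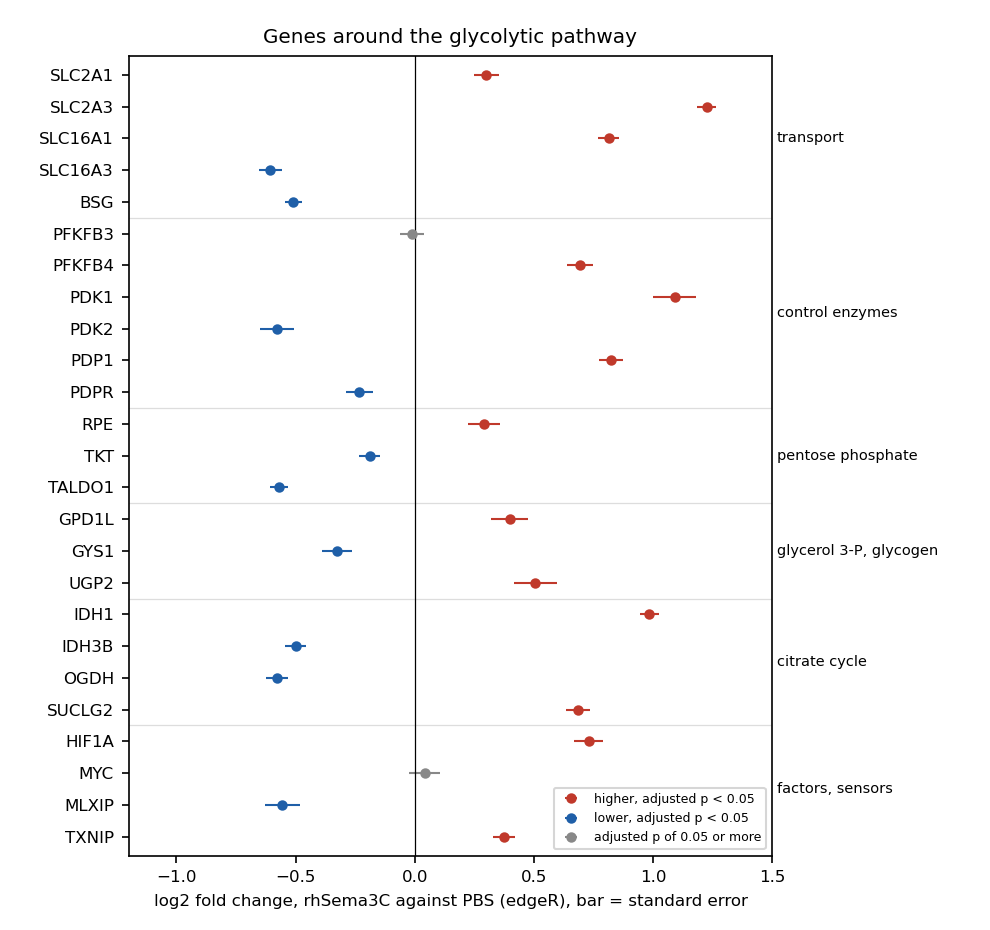
Log2 fold change, rhSema3C against PBS, of the named genes around the pathway, from edgeR with TMM scaling, grouped by list on the vertical axis. Points are estimates and bars are standard errors. SLC2A3 (1.23), PDK1 (1.09) and IDH1 (0.98) lie farthest right and SLC16A3 (-0.61), PDK2 (-0.58) and OGDH (-0.58) farthest left.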

How the data were processed

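RNA of 6 LX-2 samples was sequenced by the authors on an Illumina NovaSeq instrument from mRNA libraries, and Cufflinks with cuffmerge is named in their methods. The authors deposited unnormalised counts, whole numbers for each gene and sample, beside FPKM, which they had scaled to gene length and library size. Aligner, counting tool, strand setting and genome build are not given in the sources used here, and gene ends of 38 of the 43 genes lay within 1 kb of GENCODE 29 (GRCh38). Sample labels gave the groups and replicate numbers. The genes, the context lists and the tests were chosen with earlier results of these data known.

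All genes averaging 0.5 FPKM or more were fitted by quasi-likelihood in edgeR on the deposited counts, with TMM factors (0.958 to 0.968 in PBS and 1.03 to 1.04 in rhSema3C samples), adjusted by the Benjamini-Hochberg method. CPM were scaled with the same factors. Full values were given for the gene with the highest FPKM at each step, the 5 largest rises and falls among called genes without overlap, and every gene with a fold change above 2. From each context list the 2 largest changes in each direction were named, beside SLC2A1, SLC2A3, SLC16A1, SLC16A3, PFKFB3, PFKFB4, PDK1, HIF1A, MYC and TXNIP. No molecular identifiers were used, so counts are not counted molecules. Alternatives covered scaling, the filter, DESeq2, limma on log2(FPKM + 1), log2(FPKM + 0.1) or log2(TPM + 1), a replicate block, each sample left out, mitochondrial genes left out and pseudogenes added. Principal transcript lengths and centring on all genes were added after the data were seen. Promoters came from RefSeq (GRCh38.p14). Identity between isozyme proteins was not analysed here, and a few genes are left unreported. The fits were tested on simulated data in which few genes were changed, in equal numbers up and down. Most genes were called in the real data, so that test does not cover the dependence on scaling. The tools were edgeR 4.0.16, DESeq2 1.42.0 and limma 3.58.1 in R 4.3.3, and matplotlib 3.10.9 for plots.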

Additional observations from a re-analysis of the deposited data

How the results depend on the processing

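The counts of 15 higher and 16 lower genes stayed within 1.5 times of these values except after rescaling to TPM, which gave 23 higher and 6 lower. Over the fits that each left out a sample, the higher count ran from 10 to 14, the lower count from 15 to 17 and the median change of the 43 genes, on the log2 scale, from -0.022 to 0.019. That median, 0.01, became 0.119 with library-size scaling, 0.077 with a minimum of 5 FPKM, 0.071 and 0.102 with limma on log2(FPKM + 1) and log2(FPKM + 0.1), and 0.20 with TPM, and with the minimum of 5 FPKM its difference from all genes turned positive (0.078). In the same order of settings the log2 fold change turned positive for PGM1 (0.081, 0.077, 0.071, 0.074 and 0.196), MINPP1 (0.038, 0.035, 0.026, 0.028 and 0.149), DLAT (0.057, 0.054, 0.048, 0.050 and 0.172) and PFKFB3 (0.098, 0.094, 0.086, 0.092 and 0.213), and with TPM alone for ALDH9A1 (0.088), HK1 (0.022), ADPGK (0.047) and TKT (0.038). ENO3 turned negative with median-of-ratios scaling (-0.003), without the filter (-0.004), with DESeq2 (-0.004) and without a sample (-0.075 to -0.002), MYC without rhSema3C replicate 1 (-0.017, against up to 0.098 without other samples), and PFKFB3 ran from -0.035 to 0.036 over the fits without a sample, positive without PBS replicate 3 or rhSema3C replicate 1 (0.002). The cause of these changes was not tested, other than that the all-gene median moved with the scaling. Correlations of same-numbered deviations from the group means were -0.004, 0.058 and -0.027 for replicates 1, 2 and 3. Replicates 1 and 3 correlated better with another number, and replicate 2 did not. Values this near 0 do not settle whether the numbers pair the samples. With the number as a replicate block 12 genes were higher and 15 lower. Across the other settings, 619 of the 725 values of single glycolysis genes kept direction and side of the threshold. With 3 samples in each group, exact tests cannot go below 0.1, and HKDC1, PGAM4 and ALDH3A1 rest on few counts.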
